A study of Mus musculus with 51 samples.

Results

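The forelimb of the FVB mouse was compared between E12.5 and E11.5, on 5 arrays titled forelimb E12.5 and 4 arrays titled forelimb E11.5. These are 9 of the 51 arrays of the series, which covers fore- and hindlimb buds and whole embryos of FVB wild-type mice between E9.5 and E13.5. Each array held the total RNA of limb buds of 1 untreated embryo, amplified in a pair of rounds and labelled with biotin, and no animal carried a transgene or mutation. The limb embryos of a stage came from 1 litter, so stage and litter cannot be told apart and p-values measure the spread between littermates. Values are log2 of the deposited RMA intensities, with the probe sets of each gene averaged, for 18194 genes.

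At E11.5 the forelimb bud is a mesenchymal outgrowth under an ectodermal cover, whose distal rim, the apical ectodermal ridge, secretes fibroblast growth factors, while the posterior margin secretes sonic hedgehog. By E12.5 the mesenchyme of the limb axis has condensed into cartilage templates, the hand plate shows digital rays, migrated myoblasts fuse into the first muscle masses, and tendon cells align between muscle and skeleton. Circulating blood at these stages still carries primitive red cells from the yolk sac, which are nucleated and contain RNA, while the liver starts to release definitive red cells.

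The limb identity of the arrays was checked first, because 2 arrays carry labels that contradict each other. E12.5 forelimb replicate 5 is named E12.5 hindlimb in its other labels, and E11.5 hindlimb replicate 5 is named E12.5 forelimb. On the log2 scale, Tbx5, the T-box factor of the forelimb, measured 9.77 in E12.5 forelimb replicate 5, against 9.67 to 9.75 in the other E12.5 forelimbs and 5.76 to 6.27 in E12.5 hindlimbs. Pitx1, which specifies the hindlimb, measured 5.52 there and 10.42 to 10.76 in E12.5 hindlimbs, and in E11.5 hindlimb replicate 5 Pitx1 measured 10.65 and Tbx5 5.75. In limb type, the levels of both arrays lay with their titles, which were used. Tbx5 and Pitx1 do not separate the stages, in which the labels of E11.5 hindlimb replicate 5 also conflict. Genes that fell between the forelimb stages (below) averaged 7.62 on that array. They averaged 7.65 to 7.77 on the other E11.5 hindlimbs and 6.13 to 6.75 on E12.5 hindlimbs. Limb mesenchyme was present throughout, with Prrx1, its homeobox factor, at 9.14 to 9.28 in E12.5 arrays and 8.86 to 9.26 in E11.5 arrays. Within groups, arrays correlated at 0.995 to 0.996, and the 3' minus 5' signal of Gapdh, a measure of RNA integrity, was -0.06 to 0.01 at E12.5 and -0.06 to 0.05 at E11.5. The same measure for Actb was 0.20 to 0.23 at E12.5, and at E11.5 it was 0.70 in replicate 3 and 0.20 to 0.25 in the other forelimbs.

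A gene was called where it differed at least 2-fold at a Benjamini-Hochberg adjusted p under 0.001 in limma, over all genes. By this rule 109 genes rose at E12.5 (0.599% of the genes tested) and 30 fell (0.165%). Without a fold minimum 476 passed in the higher direction (2.62%) and 138 in the lower (0.758%). The median log2 fold change was 1.29 over the genes called higher, -1.32 over those called lower and -0.02 over all genes. Arrays did not overlap between the stages in 107 of the 109 and 30 of the 30 called genes, and over all genes in 8.14% that were higher and 7.85% that were lower. 78 of the 109 genes called higher and 23 of the 30 called lower rest on 1 probe set, beside 9182 of all 18194 genes. Leaving out the 2 arrays of contradictory labels gave 99 higher and 26 lower. Grouping by the other labels, which puts the array with hindlimb levels of Pitx1 among the E12.5 forelimbs, gave 1 and 15.

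The arrays of a stage were not equally far apart. The mean level of the 109 genes called higher was 6.87 on E12.5 replicate 1 and 7.28 to 7.50 on the other E12.5 arrays, against 5.70 on E11.5 replicate 1 and 5.93 to 6.04 on the other E11.5 arrays. E12.5 replicate 1 was the lowest of its group in 82 of these genes and the highest in 28 of the 30 genes called lower, and E11.5 replicate 1 was the lowest of its group in 81 of the 109. At each stage replicate 1 thus held the lowest mean of the genes called higher. Among E12.5 hindlimbs, replicate 1 had the lowest mean of the same 109 genes as well (5.78, against 6.34 to 6.46), whereas among E11.5 hindlimbs replicate 1 was the second highest (5.36, in a range of 5.05 to 5.51) and replicate 4 the lowest. Without E12.5 forelimb replicate 1, 135 genes were called higher and 31 lower.

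Of the 33 gene lists examined, those of the muscle contractile apparatus, the cartilage matrix and tendon had the 3 highest median changes (0.99, 0.87 and 0.64), and the erythroid list had the lowest (-0.76). Matn1, Chodl and Myh8 led the rise on these lists and Hemgn the fall. 45 of the 109 genes called higher and 14 of the 30 called lower were on a list.

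**Figure D1:**
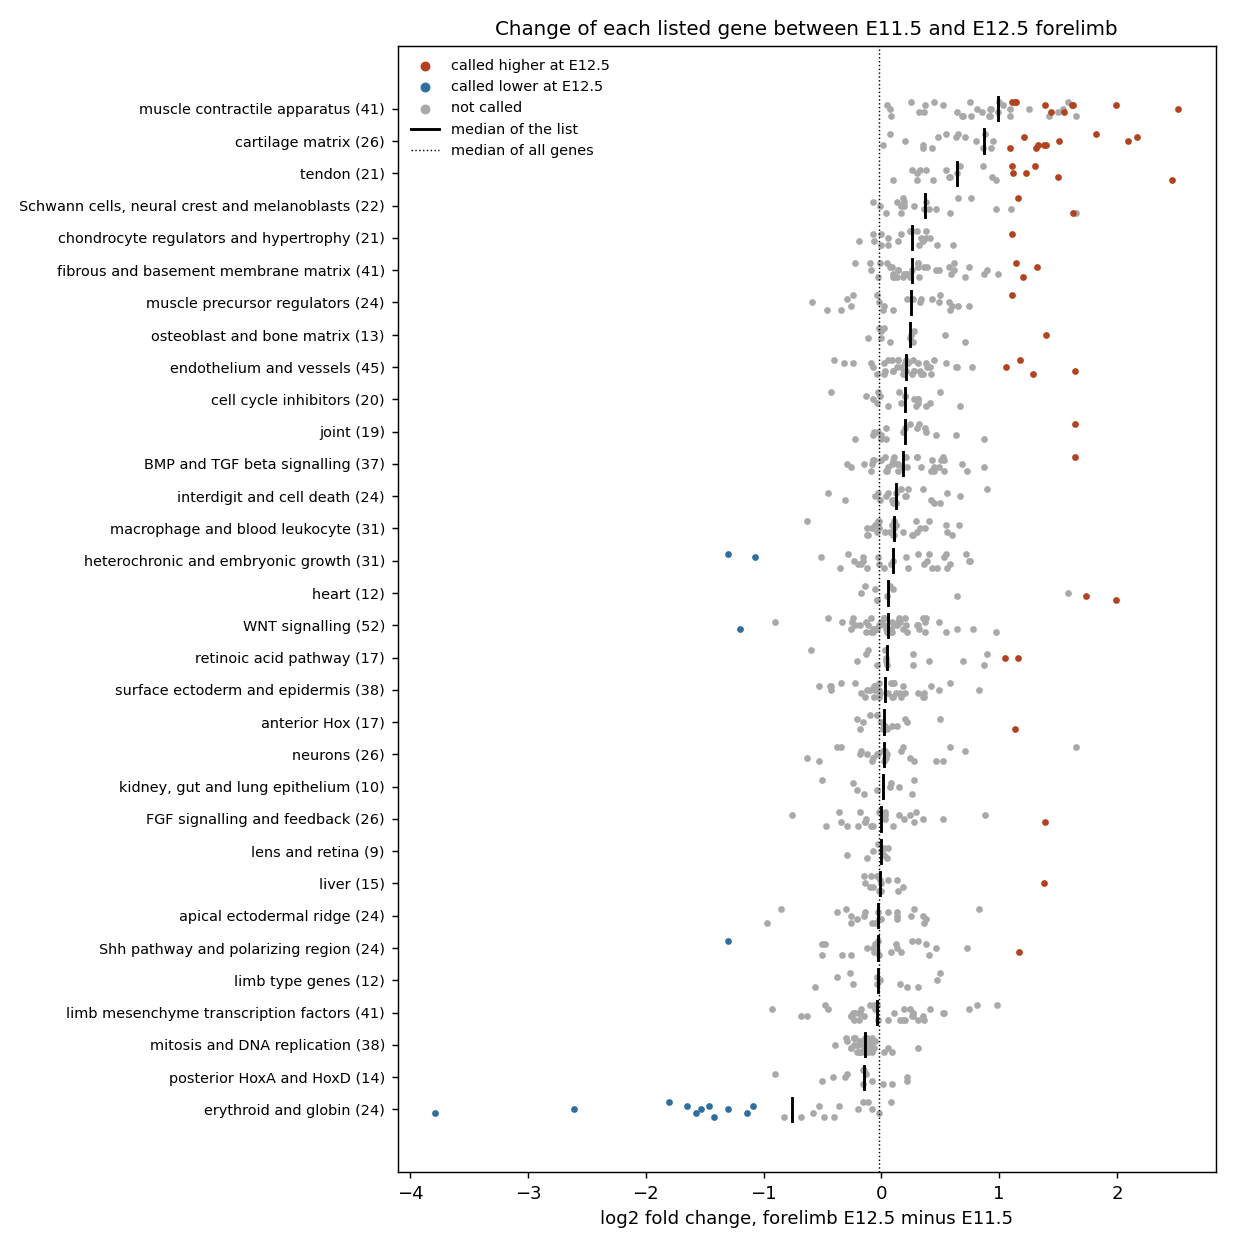
Log2 fold change of every measured gene of 32 gene lists between E12.5 and E11.5 forelimb (x axis), with the lists ordered by their median and the number of measured genes in brackets. Red points were called higher at E12.5, blue points lower and grey points neither, black bars are list medians and the dotted line is the median of all genes (-0.02). The muscle, cartilage and tendon lists have no member below 0, and 23 of 24 erythroid genes lie below it.

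Cartilage is built from type II collagen fibrils filled with aggrecan, a proteoglycan that link protein holds on hyaluronan, under the control of Sox9, Sox5 and Sox6. 10 of 26 measured cartilage matrix genes rose, none fell, all 26 had a positive change and the median was 0.87, beside -0.02 over all genes. Matn1, a matrilin that bridges collagen fibrils, measured 7.22, 8.33, 8.19, 8.68 and 8.61 in E12.5 forelimbs, against 5.16, 6.13, 6.62 and 6.23 in E11.5 forelimbs. All E12.5 values lay above all E11.5 values, with replicate 1 lowest at both stages, and the difference of 2.17 ± 0.30 (SE) equals 4.49-fold (adjusted p = 7.33e-07). Cytl1, a secreted factor of chondrocytes, rose by 2.09 (SE 0.21, adjusted p = 1.1e-09) and Epyc, a small proteoglycan of the growth plate, by 1.82 (SE 0.27, adjusted p = 4.3e-06).

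Acan, which encodes aggrecan, measured 7.14, 8.24, 7.74, 8.11 and 7.94 in E12.5 forelimbs, against 5.69, 6.39, 6.89 and 6.86 in E11.5 forelimbs. The groups did not overlap, although replicate 1 at E12.5 stood close to the highest E11.5 array, and the change was 1.38 ± 0.24 (SE, adjusted p = 4.55e-05). Without E11.5 replicate 1 the change in Acan was 1.12 and its call was lost (adjusted p = 0.00132). Hapln1, the link protein, measured 6.67, 7.83, 7.51, 7.91 and 7.71 in E12.5 forelimbs and 6.29, 6.15, 5.70 and 5.93 in E11.5 forelimbs, a change of 1.51 ± 0.17 (SE, adjusted p = 1.68e-08). In E10.5 forelimbs Hapln1 averaged 7.64, so its E12.5 mean of 7.53 was no higher than at E10.5. The remaining called members were Comp (1.40), which binds collagen fibrils, Csgalnact1 (1.33), an enzyme of chondroitin sulfate synthesis, Snorc (1.31), Scrg1 (1.21) and Matn4 (1.09). For Snorc, a membrane proteoglycan of chondrocytes, the arrays overlapped, since E12.5 replicate 1 (4.99) lay below the highest E11.5 array (5.00).

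The abundant fibrillar genes moved less and did not pass. Col2a1, the type II collagen chain, measured 11.49 to 12.08 in E12.5 forelimbs and 11.02 to 11.70 in E11.5 forelimbs (0.43 ± 0.18, adjusted p = 0.13), with overlap. The type IX collagen genes, whose products coat type II fibrils, had changes of 0.80 (Col9a2, adjusted p = 0.017), 0.63 (Col9a3, adjusted p = 0.0022) and 0.35 (Col9a1, adjusted p = 0.079). Of 21 chondrocyte regulators 1 rose and none fell, with a median of 0.26. Sox9, the master regulator of chondrocytes, measured 7.67 to 7.85 in E12.5 forelimbs and 7.69 to 7.76 in E11.5 forelimbs (0.00 ± 0.10, adjusted p = 0.99). Sox6 (0.38, adjusted p = 0.047), Sox5 (0.14, adjusted p = 0.36) and Nkx3-2 (0.17, adjusted p = 0.39), factors that act beside or below Sox9, were not called either. The called regulator was Mef2c (1.11 ± 0.15, adjusted p = 3e-07), a factor of both hypertrophic cartilage and muscle, at 8.96 to 9.49 in E12.5 forelimbs and 7.91 to 8.46 in E11.5 forelimbs. Ihh, the hedgehog ligand of prehypertrophic chondrocytes, measured 5.31 to 6.09 in E12.5 forelimbs and 4.65 to 5.72 in E11.5 forelimbs (0.61 ± 0.18, adjusted p = 0.0214). Fitted on the groups of this comparison alone, 4 cartilage matrix genes were called. Matn1, Hapln1, Csgalnact1, Acan, Comp and Snorc lost their calls in that limma fit, at adjusted p of 0.00152 to 0.02.

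Bone and joint genes contributed 2 calls. Ogn, the small proteoglycan osteoglycin of the osteoblast list, rose by 1.40 ± 0.17 (SE, adjusted p = 1.2e-07), and 12 of 13 measured osteoblast and bone matrix genes were not called (median 0.24). Sp7, the osterix factor of osteoblasts, measured 5.02 to 5.46 in E12.5 forelimbs and 4.77 to 5.37 in E11.5 forelimbs (0.07, adjusted p = 0.82). Col1a1, the type I collagen chain of bone and dermis, measured 10.01 to 10.51 in E12.5 forelimbs and 9.20 to 9.74 in E11.5 forelimbs (0.71 ± 0.20, adjusted p = 0.016). The other chain, Col1a2, had a change of 0.24 (adjusted p = 0.0573) and the alkaline phosphatase Alpl one of 0.28 (adjusted p = 0.352). The homeobox factors Dlx5 and Dlx6 had changes of 0.00 and 0.25 (adjusted p = 0.992 and 0.542).

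Of 19 joint genes 1 rose and the median was 0.20. Nog, the noggin inhibitor that keeps bone morphogenetic proteins in check around condensations and joints, measured 7.31, 8.10, 8.13, 7.98 and 7.91 in E12.5 forelimbs, against 6.07, 6.37, 6.31 and 6.23 in E11.5 forelimbs. The groups were separate, with E12.5 replicate 1 lowest of its group, and the change was 1.64 ± 0.19 (SE, adjusted p = 3.13e-08). Gdf5, the growth factor of the joint interzone, measured 9.08 to 9.70 in E12.5 forelimbs and 8.27 to 8.75 in E11.5 forelimbs, a separate but smaller change of 0.87 ± 0.19 (adjusted p = 0.00136) that missed both thresholds. Osr1 and Osr2, odd-skipped factors of joint mesenchyme, had changes of 0.46 and -0.03 (adjusted p = 0.0579 and 0.939), and Wnt4 one of 0.32 (adjusted p = 0.058). Nog averaged 4.10, 6.24, 7.88 and 6.31 over the 4 stages E10.5, E11.5, E12.5 and E13.5 in that order, and Gdf5 averaged 5.79, 8.56, 9.43 and 8.71, so both were highest at E12.5. The steps before and after share the E11.5 or E12.5 arrays with this comparison.

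Tendon is a dense collagen tissue whose progenitors express the factor Scx and whose mature cells express tenomodulin. Of 21 measured tendon genes 6 rose and none fell, all 21 had a positive change and the median was 0.64. Chodl, a membrane lectin placed on this list, measured 5.34, 6.76, 7.11, 7.26 and 6.62 in E12.5 forelimbs, against 4.28, 4.00, 4.49 and 3.82 in E11.5 forelimbs. No arrays overlapped, and the change of 2.47 ± 0.25 (SE) equals 5.55-fold (adjusted p = 1.39e-09). Tnmd, which encodes tenomodulin, measured 5.49, 6.06, 6.05, 5.81 and 6.18 in E12.5 forelimbs and 4.59, 4.79, 4.95 and 4.90 in E11.5 forelimbs (1.11 ± 0.23, adjusted p = 0.00063). The Tnmd call was lost without any of 8 single arrays (adjusted p of 0.00136 to 0.00491), without the 2 arrays of contradictory labels (0.00368), with quantile normalization (0.00392) and with the other labels (0.169). The matricellular thrombospondins Thbs4 (1.50) and Thbs2 (1.23), the fibril-associated collagen Col14a1 (1.30) and the mechanoresponsive factor Egr1 (1.12) were the other called members. The regulators that define the lineage were not called. Scx measured 5.50 to 5.72 in E12.5 forelimbs and 5.49 to 5.59 in E11.5 forelimbs (0.10 ± 0.10, adjusted p = 0.64), and Mkx, a homeobox factor of tendon, measured 7.70 to 8.43 in E12.5 forelimbs and 7.52 to 7.74 in E11.5 forelimbs (0.57 ± 0.15, adjusted p = 0.01). Egr2 had a change of 0.33 (adjusted p = 0.035).

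Skeletal muscle of the limb arises from Pax3-positive cells that migrate out of the somites, switch on the MyoD family and then assemble sarcomeres. Of 41 measured genes of the contractile apparatus 10 rose and none fell, all 41 had a positive change and the median was 0.99. By the adjusted p alone 21 passed. Myh8, the perinatal myosin heavy chain, measured 6.99, 7.84, 7.71, 7.91 and 8.11 in E12.5 forelimbs, against 4.73, 5.14, 5.46 and 5.46 in E11.5 forelimbs. This was the highest fold change of any gene called higher, 5.73-fold (2.52 ± 0.22 SE, adjusted p = 6.27e-11), with every E12.5 array above every E11.5 array. In whole limb RNA, more cells of a type and more RNA per cell cannot be told apart, here and in the lists below.

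Myh7, the slow myosin heavy chain, rose by 1.99 ± 0.30, and the Z-disc genes Actn2 (1.63) and Myoz2 (1.55), the thick filament gene Mybph (1.62), the giant spring protein Ttn (1.13) and the light chains Mylpf (1.39) and Myl4 (1.14) rose with it. Tnnt3, the fast troponin T, measured 6.69, 7.60, 7.59, 7.80 and 7.44 in E12.5 forelimbs and 5.82, 5.95, 6.04 and 6.10 in E11.5 forelimbs, a separate change of 1.44 ± 0.18 (SE, adjusted p = 1.7e-07). Rapsn (1.11), which clusters acetylcholine receptors, was the remaining call. Myl4 and Mylpf lost their calls without any of 8 single arrays, at adjusted p of up to 0.00811 and 0.00431, and Actn2 without E11.5 replicate 1 (adjusted p = 0.00172). The light chain Myl1 had a change of 1.25 (adjusted p = 0.0255). Acta1, skeletal actin, measured 10.13 to 10.91 in E12.5 forelimbs and 8.55 to 9.36 in E11.5 forelimbs. Its groups were separate and its change was 1.65 ± 0.42, but the spread pooled over all groups left an adjusted p of 0.006. Actc1, cardiac actin, measured 12.92 to 13.20 in E12.5 forelimbs and 12.17 to 12.58 in E11.5 forelimbs (0.64 ± 0.58, adjusted p = 0.59), also without overlap. Fitted on the groups of this comparison alone, 16 contractile genes were called.

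The regulators of muscle precursors averaged 6.94 to 7.11 on E12.5 forelimb arrays and 6.79 to 6.83 on E11.5 forelimb arrays. Of 24 precursor regulators 1 was called, Mef2c, which the chondrocyte list also holds, and the median was 0.25. Myod1 measured 5.88 to 6.15 in E12.5 forelimbs and 5.78 to 5.94 in E11.5 forelimbs (0.10 ± 0.13, adjusted p = 0.72), and Myf5 7.66 to 8.06 in E12.5 forelimbs and 7.74 to 8.02 in E11.5 forelimbs (-0.04, adjusted p = 0.929), both with overlap. Myog, which drives fusion, measured 10.55 to 10.85 in E12.5 forelimbs and 9.83 to 10.20 in E11.5 forelimbs (0.65 ± 0.45, adjusted p = 0.431). The Myog stages did not overlap, and this SE rests on the spread pooled over all groups. The genes of migrating precursors had negative changes, with Lbx1 at 6.22 to 6.52 in E12.5 forelimbs and 6.83 to 7.18 in E11.5 forelimbs (-0.59 ± 0.10, adjusted p = 7.2e-05) and Pax3 at 4.92 to 5.00 in E12.5 forelimbs and 5.13 to 5.83 in E11.5 forelimbs (-0.46 ± 0.15, adjusted p = 0.031). Pax7, which marks later precursors, had a change of 0.60 ± 0.16 (adjusted p = 0.012), and Met, the receptor that precursors need to migrate, one of -0.29 (adjusted p = 0.0974). None of these reached 2-fold.

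**Figure D2:**
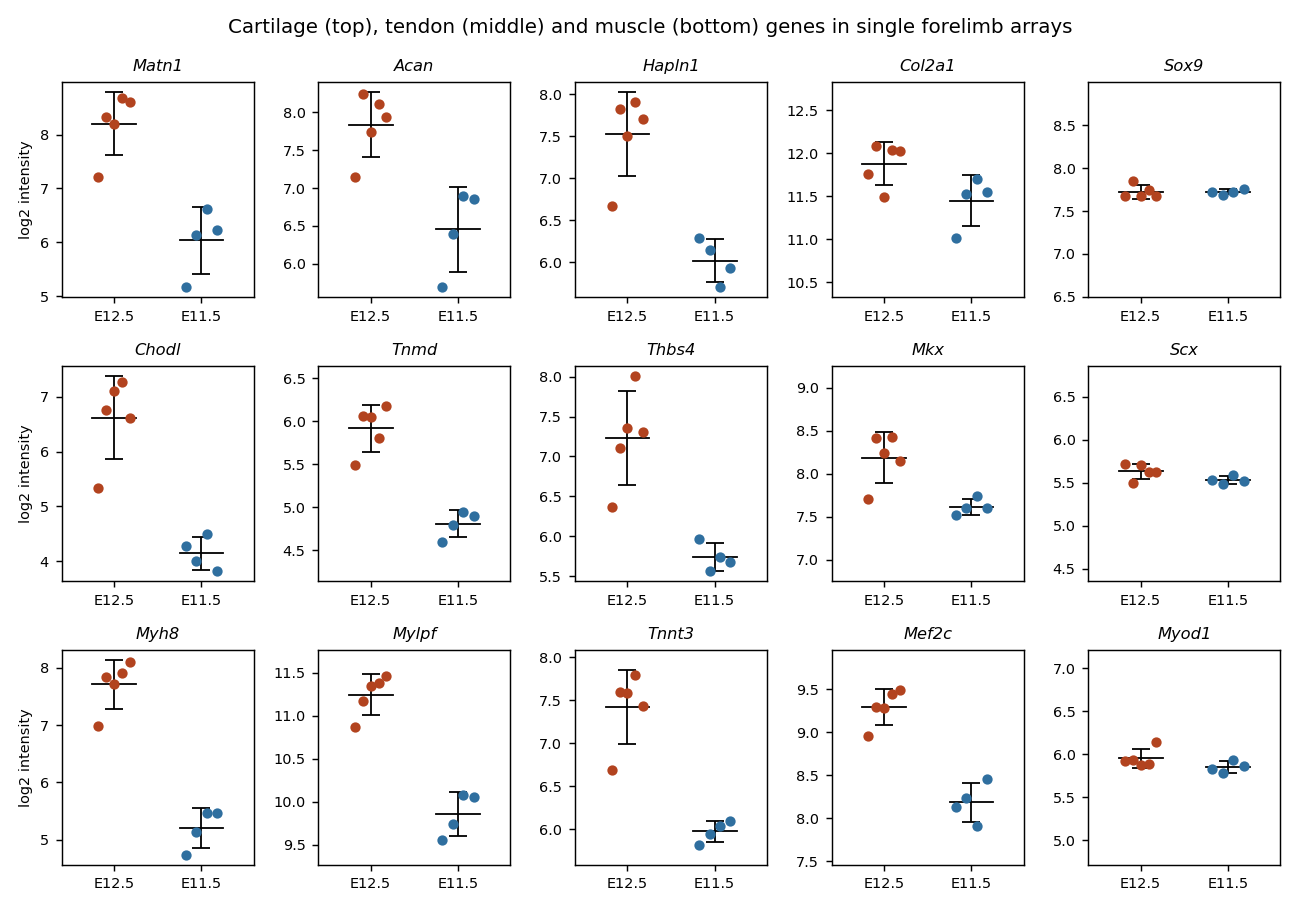
Log2 intensity (y axis) of 5 cartilage genes (top row), 5 tendon genes (middle row) and 5 muscle genes (bottom row) on each forelimb array, E12.5 in red and E11.5 in blue. Bars are the mean and SD of 5 and 4 arrays, and every panel spans at least 2.5 log2 units. Matn1, Chodl and Myh8 separate by more than 2 log2 units on average, whereas Sox9, Scx and Myod1 change by 0.00 to 0.10.

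The promoter windows of 3 called sarcomere genes are shown because this list moved together and its hexamer CAGCTG is a form of the E-box that MyoD factors bind. The windows are from RefSeq on build GRCm38.p6, 250 bases before to 50 bases after the start, with CAGCTG in capitals.
Mybph, chr1:134193198-134193497, plus strand: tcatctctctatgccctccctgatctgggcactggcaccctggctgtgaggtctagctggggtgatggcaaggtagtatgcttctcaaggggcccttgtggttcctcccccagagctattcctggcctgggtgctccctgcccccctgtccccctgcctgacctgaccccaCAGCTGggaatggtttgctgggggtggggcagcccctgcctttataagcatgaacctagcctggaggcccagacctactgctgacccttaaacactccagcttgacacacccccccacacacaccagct
Myoz2, chr3:123034938-123035237, minus strand: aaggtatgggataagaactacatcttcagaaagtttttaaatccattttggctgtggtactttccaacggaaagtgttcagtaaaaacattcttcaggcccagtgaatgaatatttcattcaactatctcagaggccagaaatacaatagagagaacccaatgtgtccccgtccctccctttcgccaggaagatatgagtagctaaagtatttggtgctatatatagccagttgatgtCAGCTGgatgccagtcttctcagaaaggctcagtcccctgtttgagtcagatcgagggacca
Mylpf, chr7:127211358-127211657, plus strand: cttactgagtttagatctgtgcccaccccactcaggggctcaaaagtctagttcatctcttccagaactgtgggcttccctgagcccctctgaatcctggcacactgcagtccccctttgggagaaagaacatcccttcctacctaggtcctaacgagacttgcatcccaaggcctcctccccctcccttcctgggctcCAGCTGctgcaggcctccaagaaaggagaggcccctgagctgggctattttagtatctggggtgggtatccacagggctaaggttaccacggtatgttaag
CAGCTG is its own reverse complement, so 1 search covers both strands. It occurred in 3 of 8 called contractile genes with a window, 14 of 26 uncalled ones, 14 of 71 genes called higher (19.7%) and 16.1% of all 27025 windows. The hexamer was chosen with the list in view, and a match describes the letters only.

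Connective tissue matrix showed 3 calls among 41 measured fibrous and basement membrane genes, with 36 positive changes and a median of 0.26. Postn, periostin of the fibroblast matrix, measured 10.31, 10.17, 10.16, 10.58 and 10.85 in E12.5 forelimbs and 9.22, 8.97, 9.25 and 8.92 in E11.5 forelimbs (1.32 ± 0.22 SE, adjusted p = 2.71e-05). Col6a1, a chain of microfibrillar collagen, rose by 1.20 ± 0.20, and Lox, the oxidase that cross-links collagen, by 1.14 ± 0.13. The 3 probe sets of Lox gave changes of 0.22 to 1.73. Col3a1 and Col5a1 passed the adjusted p (4.2e-07 and 1.8e-06) but not the fold, at 0.62 and 0.74. Without E12.5 replicate 1, 5 genes of this list were called.

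Of the 109 genes called higher 64 belonged to no list, among them several of the highest fold changes. Aspn, the small proteoglycan asporin, measured 5.15, 6.49, 6.13, 6.83 and 6.91 in E12.5 forelimbs and 3.68, 4.16, 4.01 and 3.85 in E11.5 forelimbs, 5.2-fold higher (adjusted p = 1.35e-09). Col8a2, a short-chain collagen, rose by 1.83 ± 0.21. Itgb1bp2 (1.94), the melusin of the costamere, Csrp3 (1.68), a muscle LIM protein, and Myot (1.68), the Z-disc protein myotilin, rose as well, and these are muscle genes that the contractile list does not hold. Tceal7 (2.12), Prr32 (2.11) and Enpep (2.08), the last an aminopeptidase of vessels and kidney were also among the highest. In each of these genes the E12.5 arrays lay above all E11.5 arrays.

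Vessels are lined by endothelium, from which lymphatic cells bud under the factor Prox1. Of 45 measured endothelial and vessel genes 4 rose, none fell and the median was 0.21, with 39 positive changes. Lyve1, a hyaluronan receptor of lymphatic endothelium and of macrophages, measured 6.72, 5.68, 5.16, 6.01 and 6.06 in E12.5 forelimbs, against 4.57, 3.94, 4.15 and 4.48 in E11.5 forelimbs. The groups did not overlap (1.64 ± 0.20, adjusted p = 8.73e-08), here E12.5 replicate 1 was the highest array, and the 2 probe sets gave 0.85 and 2.43. Prox1 measured 4.81 to 5.32 in E12.5 forelimbs and 3.89 to 4.41 in E11.5 forelimbs (1.06 ± 0.12, adjusted p = 2.9e-08), and it lay at the 2-fold limit without E11.5 replicate 3. Gja5, the connexin of arterial endothelium, rose by 1.29 ± 0.16 and Kcnj8, a potassium channel of pericytes, by 1.18 ± 0.13. The general endothelial genes were not called, with Kdr at 0.41 (adjusted p = 0.0033), Pecam1 at 0.34 (adjusted p = 0.017), Flt1 at 0.31 (adjusted p = 0.021) and Cdh5 at 0.10 (adjusted p = 0.72). With genes of below-median level left out, 29 genes of the list were tested and none was called, and on the groups of this comparison alone 2 were called.

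Of 31 macrophage and leukocyte genes none was called (median 0.11, changes of -0.63 to 0.66). Csf1r, the receptor that maintains macrophages, measured 7.50 to 7.77 in E12.5 forelimbs and 7.27 to 7.63 in E11.5 forelimbs, and C1qa, Aif1 and Cd68 had changes of 0.09, -0.02 and 0.30.

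Red cell genes were the largest listed group among the genes that fell, with 11 of the 30. The list holds globins, heme enzymes, membrane proteins of the red cell and the factors Klf1 and Gata1 that switch them on. Of 24 measured erythroid genes, 6 more of the 30 listed not being analysed here, 11 fell and none rose, 23 had a negative change and the median was -0.76. Hemgn, a nuclear protein of erythroid precursors, measured 5.59, 4.18, 4.39, 4.40 and 3.68 in E12.5 forelimbs, against 8.75, 7.69, 8.23 and 8.31 in E11.5 forelimbs. The lowest E11.5 array was above the highest E12.5 array by more than 2 log2 units, and the gene fell 13.9-fold (-3.79 ± 0.27 SE, adjusted p = 1.84e-13). Rhag, the Rh-associated membrane glycoprotein, measured 5.13, 4.05, 4.65, 4.32 and 3.95 in E12.5 forelimbs and 6.99, 6.94, 7.26 and 6.91 in E11.5 forelimbs, a fall of 6.09-fold (adjusted p = 1.46e-10).

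Klf1, the activator of adult globin and red cell genes, measured 7.0, 6.43, 6.48, 5.83 and 5.57 in E12.5 forelimbs, against 8.22, 7.80, 7.96 and 8.28 in E11.5 forelimbs (-1.80 ± 0.21, adjusted p = 2.05e-08). The other called members were Slc25a37 (-1.57), the iron importer of mitochondria, Kel (-1.53), Trim10 (-1.46), Ermap (-1.42), Slc4a1 (-1.30), the band 3 anion exchanger, Alas2 (-1.14), the first enzyme of heme synthesis, and Epb42 (-1.09). Gata1 measured 4.96 to 5.45 in E12.5 forelimbs and 5.73 to 6.12 in E11.5 forelimbs, a separate change of -0.83 ± 0.15 (adjusted p = 7.35e-05) that missed the fold. E12.5 replicate 1 was the highest E12.5 array for Hemgn, Rhag and Klf1, as for 28 of the 30 genes called lower. Over the 4 stages, earliest first, forelimb Hemgn averaged 9.47, 8.24, 4.45 and 3.72, and Klf1 8.80, 8.07, 6.26 and 5.31.

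The globins divided. Hbb-bh1, an embryonic beta-like globin, measured 12.59, 11.85, 12.24, 11.83 and 11.59 in E12.5 forelimbs, against 13.72, 13.52, 13.74 and 13.69 in E11.5 forelimbs (-1.65 ± 0.15, adjusted p = 1.46e-10). Hba-x, the embryonic alpha-like globin, measured 13.05 to 13.52 in E12.5 forelimbs and 13.80 to 14.06 in E11.5 forelimbs (-0.68 ± 0.17, adjusted p = 0.0037). Hbb-y, the other embryonic beta-like globin, measured 14.24 to 14.35 in E12.5 forelimbs and 14.36 to 14.52 in E11.5 forelimbs (-0.16 ± 0.08, adjusted p = 0.229), where 14.79 was the highest value of any probe set in the series. All E12.5 arrays lay below all E11.5 arrays for these 3 globins. The probe sets of the adult alpha globins Hba-a1 and Hba-a2 read 3.18 to 3.76 and 5.01 to 5.37 at E12.5 and had changes of -0.02 and -0.20. Hba-a1 and Hba-a2 are near-identical in sequence, yet their probe sets read at unlike levels. Whether these probe sets measure adult alpha globin was not tested, so their small changes do not show that it was unchanged. Whether the probe sets of the other globins separate related genes was not tested either.

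Other called lower genes of the blood lineage were outside the list: Icam4 (-1.63) and Rhd (-1.48), which carry red cell antigens, Car2 (-1.49), a carbonic anhydrase of red cells and other tissues, Nfe2 (-1.35) and Tal1 (-1.02), factors of erythroid and megakaryocyte cells, and Ppbp (-1.20), a platelet chemokine. Car2 measured 8.73 to 9.53 in E12.5 forelimbs and 10.40 to 10.76 in E11.5 forelimbs. Cldn13 (-1.34) and Ncf4 (-1.39), a subunit of the phagocyte oxidase, fell as well. The erythroid list averaged 6.74 to 7.19 on the E12.5 forelimb arrays and 7.81 to 7.96 on those of E11.5, and 6.73 to 7.13 on E12.5 and 7.72 to 7.83 on E11.5 hindlimb arrays.

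The next 4 windows belong to the called red cell genes of largest fall that had a window, shown because each holds GATAA, the core of the sites bound by GATA factors, among them Gata1. They are RefSeq windows on build GRCm38.p6 of the same length as above, with GATAA, or TTATC for the other strand, in capitals.
Hemgn, chr4:46404134-46404433, minus strand: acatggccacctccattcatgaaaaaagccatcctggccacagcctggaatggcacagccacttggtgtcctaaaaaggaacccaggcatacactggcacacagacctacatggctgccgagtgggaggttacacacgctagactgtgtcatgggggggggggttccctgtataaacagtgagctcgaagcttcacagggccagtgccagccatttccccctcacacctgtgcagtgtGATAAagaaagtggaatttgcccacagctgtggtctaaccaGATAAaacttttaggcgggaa
Rhag, chr17:40810899-40811198, plus strand: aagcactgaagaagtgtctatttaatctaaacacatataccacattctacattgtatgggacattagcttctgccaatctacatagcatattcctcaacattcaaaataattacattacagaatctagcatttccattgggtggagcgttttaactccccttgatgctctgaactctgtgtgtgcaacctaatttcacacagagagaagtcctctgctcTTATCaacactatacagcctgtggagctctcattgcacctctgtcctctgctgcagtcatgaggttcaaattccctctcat
Klf1, chr8:84901732-84902031, plus strand: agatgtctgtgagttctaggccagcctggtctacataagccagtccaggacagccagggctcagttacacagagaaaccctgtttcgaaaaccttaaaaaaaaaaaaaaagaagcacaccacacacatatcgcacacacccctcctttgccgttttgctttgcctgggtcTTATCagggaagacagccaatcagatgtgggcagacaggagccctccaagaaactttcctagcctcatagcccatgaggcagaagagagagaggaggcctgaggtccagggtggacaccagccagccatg
Kel, chr6:41704276-41704575, minus strand: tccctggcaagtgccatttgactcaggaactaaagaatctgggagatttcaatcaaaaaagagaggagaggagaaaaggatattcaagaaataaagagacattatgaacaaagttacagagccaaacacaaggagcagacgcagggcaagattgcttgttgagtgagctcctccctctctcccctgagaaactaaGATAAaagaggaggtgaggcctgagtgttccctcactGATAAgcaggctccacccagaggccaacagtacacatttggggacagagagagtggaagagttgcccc
All 8 called erythroid genes with a window held the motif, as did 5 of 10 uncalled erythroid genes, 12 of 19 genes called lower (63.2%), 17 of 71 called higher (23.9%), 25.8% of all windows and 19.1% of the 14453 windows of genes measured here. The motif was chosen with the gene list in view, and a match is a description of the letters only.

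**Figure D3:**
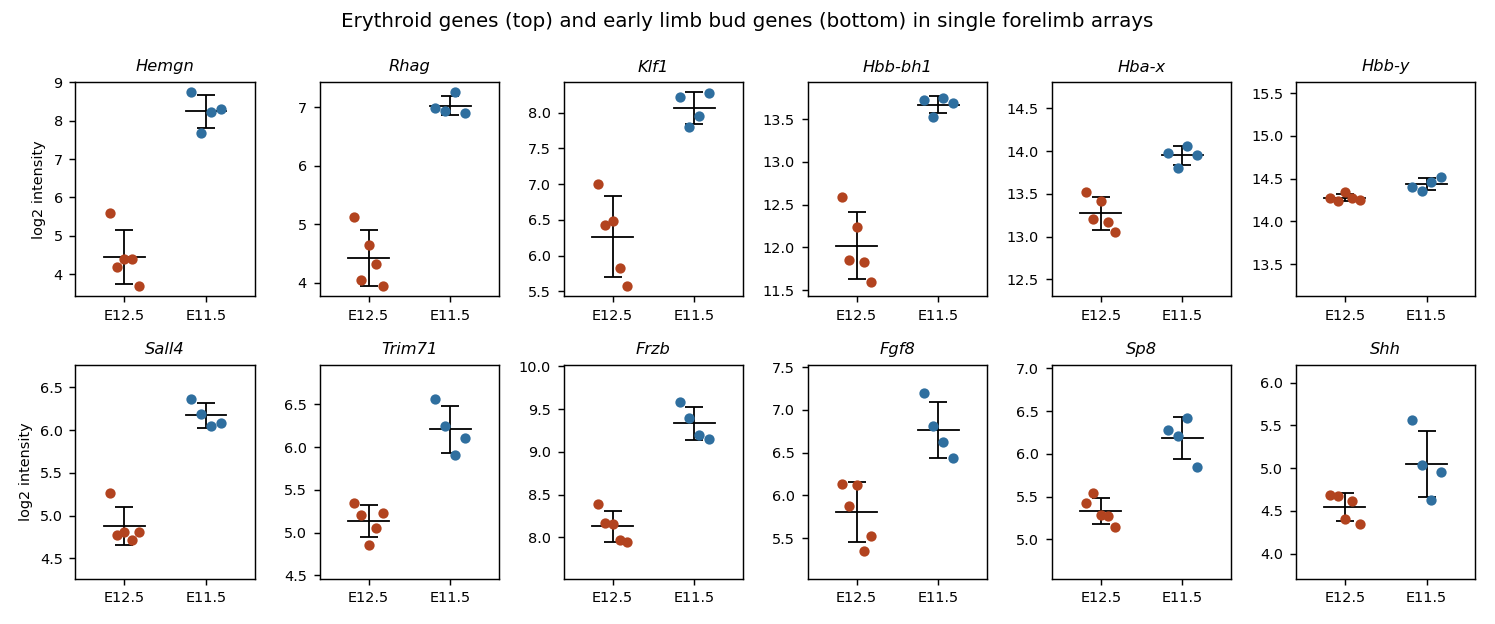
Log2 intensity (y axis) of 6 erythroid genes (top row) and 6 genes of the early limb bud (bottom row) on each forelimb array, E12.5 in red and E11.5 in blue, with bars for the mean and SD of 5 and 4 arrays. Every panel spans at least 2.5 log2 units. Hemgn falls furthest, Hbb-y stays between 14.24 and 14.52, and Shh overlaps between the stages.

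Of 24 genes of the apical ectodermal ridge none was called (median -0.03). Fgf8, the principal ridge growth factor, measured 6.13, 5.88, 6.12, 5.35 and 5.53 in E12.5 forelimbs, against 7.20, 6.81, 6.62 and 6.44 in E11.5 forelimbs. The stages were separate, and the change of -0.97 ± 0.24 (adjusted p = 0.00469) missed both thresholds. Sp8, the zinc finger factor upstream of Fgf8 in the ridge, measured 5.14 to 5.54 in E12.5 forelimbs and 5.84 to 6.42 in E11.5 forelimbs (-0.85 ± 0.17, adjusted p = 0.000446) and missed the fold. Krt15, a basal keratin on the ridge list, passed the adjusted p in the other direction (0.83, adjusted p = 0.00072), while Fgf4 (0.13), Fgf9 (0.13) and Fgf17 (-0.14) had adjusted p of 0.54 to 0.62. The changes in Wnt5a, Msx2, Wnt3 and Krt14 were -0.02, -0.05, 0.06 and 0.36 (adjusted p = 0.0593 to 0.943).

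Of 24 genes of the hedgehog pathway and polarizing region 1 rose and 1 fell, with a median of -0.03. Shh itself measured 4.69, 4.67, 4.40, 4.62 and 4.35 in E12.5 forelimbs and 5.56, 5.04, 4.63 and 4.95 in E11.5 forelimbs, with overlap (-0.50 ± 0.16, adjusted p = 0.0301), and its 2 probe sets gave -0.92 and -0.07. Hhip, the decoy receptor that hedgehog signalling induces, measured 5.59, 6.62, 6.27, 6.32 and 5.98 in E12.5 forelimbs and 4.70, 5.22, 4.96 and 5.05 in E11.5 forelimbs, a separate rise of 1.17 ± 0.16 (adjusted p = 4.15e-07). The Hhip call was lost with the groups of this comparison alone (adjusted p = 0.00181 in limma) and with the other labels (0.00192). The other pathway targets stayed near 0, Ptch1 at 0.08 (adjusted p = 0.62) and Gli1 at -0.07 (adjusted p = 0.85). Sall4, a zinc finger factor of the early bud, measured 5.27, 4.77, 4.81, 4.72 and 4.81 in E12.5 forelimbs and 6.37, 6.19, 6.05 and 6.08 in E11.5 forelimbs (-1.30 ± 0.15, adjusted p = 4.02e-08).

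None of 14 posterior HoxA and HoxD genes was called (median -0.15, range -0.90 to 0.22). Hoxa13, which patterns the hand plate, measured 8.05 to 8.65 in E12.5 forelimbs and 7.99 to 8.60 in E11.5 forelimbs, and Hoxa11, of the forearm, 9.09 to 9.58 in E12.5 forelimbs and 9.73 to 9.87 in E11.5 forelimbs (-0.41 ± 0.12, adjusted p = 0.021). Of 17 anterior Hox genes Hoxd1 rose, with 4.68, 4.67, 4.88, 5.08 and 5.67 in E12.5 forelimbs and 3.48, 3.96, 3.79 and 4.21 in E11.5 forelimbs (1.13 ± 0.24, adjusted p = 0.00065). The Hoxd1 call was lost without any of 6 single arrays (adjusted p of 0.00121 to 0.00725), without the 2 arrays of contradictory labels (0.00628), with the groups of this comparison alone (0.00438), with a replicate block (0.00134), with quantile normalization (0.00116) and with the other labels (0.203). No limb type gene (12, median -0.03) and none of 41 limb mesenchyme transcription factors (median -0.04) was called. Tbx5 measured 9.67 to 9.77 in E12.5 forelimbs, against 8.42 in E11.5 replicate 3 and 9.53 to 9.94 in the other E11.5 forelimbs. That array was also the lowest of its group in Prrx1 and Hoxa13, and it is the array with the Actb 3' minus 5' signal of 0.70, whose part in these levels was not tested. Among the other first genes of these lists, the changes were -0.16 for Hoxa9 and -0.08 for Hoxa10 (the lower adjusted p being 0.231), -0.18 for Hoxa2, 0.02 for Hoxa3 and 0.00 for Hoxa4 (adjusted p = 0.669 to 0.996), and 0.16 for Tbx4 and -0.38 for Isl1, factors of the hindlimb field (adjusted p = 0.408 and 0.305). The homeobox factors Prrx2, Shox2 and Alx1 had changes of -0.26, -0.19 and 0.41 (adjusted p = 0.201 to 0.352).

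In the FGF list (26 genes, 1 higher, median 0.00), Fgf7, the keratinocyte growth factor of mesenchyme, measured 6.99, 6.62, 7.0, 6.98 and 7.04 in E12.5 forelimbs, against 5.34, 5.52, 5.63 and 5.66 in E11.5 forelimbs (1.39 ± 0.12 SE, adjusted p = 3.37e-11). The stages were well apart, unlike those of Fgf10, the mesenchymal factor that maintains the ridge, at 5.42 to 5.96 in E12.5 forelimbs and 5.30 to 6.22 in E11.5 forelimbs (-0.07, adjusted p = 0.87). Fgf18 had a change of 0.52 (adjusted p = 0.206) and Fgf2 one of 0.24 (adjusted p = 0.19). In the list of BMP and TGF beta signals (37 genes, median 0.18) Nog was the call, and the ligands Bmp5 (0.68, adjusted p = 0.00014), Bmp6 (0.51, adjusted p = 0.009), Bmp2 (0.45, adjusted p = 0.068), Bmp7 (0.11, adjusted p = 0.64) and Bmp4 (-0.26, adjusted p = 0.13) missed the fold. In the WNT list (52 genes, median 0.06), Frzb, a secreted WNT antagonist of early cartilage, fell, with 7.95 to 8.39 in E12.5 forelimbs and 9.15 to 9.58 in E11.5 forelimbs (-1.20 ± 0.14, adjusted p = 1.45e-08). The ligand Wnt5b had a change of 0.14 (adjusted p = 0.459) and the antagonist Dkk1 one of -0.45 (adjusted p = 0.0021). Of 17 retinoic acid genes 2 rose, the synthetic enzyme Aldh1a3 (1.16 ± 0.11, adjusted p = 4.1e-10) and the nuclear receptor Rxrg (1.05 ± 0.14, adjusted p = 2e-07), which missed 2-fold without E12.5 replicate 3 (0.98). Aldh1a2, the main synthetic enzyme of the embryo, had a change of 0.69 ± 0.31 (adjusted p = 0.16), Aldh1a1 one of 0.27 (adjusted p = 0.35) and Cyp26a1, which degrades retinoic acid, one of -0.13 (adjusted p = 0.658). No interdigit or cell death gene was called (24, median 0.12).

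None of 38 genes of mitosis and DNA replication was called, yet 34 had a negative change and the median was -0.14, beside -0.02 over all genes. Mki67, present in cycling cells, measured 11.76 to 11.92 in E12.5 forelimbs and 11.97 to 12.09 in E11.5 forelimbs (-0.18 ± 0.07, adjusted p = 0.071), with no overlap. The cell cycle inhibitors had a median of 0.20 with no call among 20. Cdkn1a, the p21 inhibitor, measured 8.80 to 9.22 in E12.5 forelimbs and 8.22 to 8.39 in E11.5 forelimbs (0.67 ± 0.13, adjusted p = 0.00034), and Cdkn1b and Cdkn2a had changes of 0.41 and 0.20 (adjusted p = 0.146 and 0.229). The mitotic genes Top2a and Ccnb2 had changes of -0.06 and -0.20 (adjusted p = 0.707 and 0.0501). Of 31 heterochronic and embryonic growth genes 2 fell, Sall4 and Trim71, a let-7 target that represses differentiation, which measured 4.86 to 5.35 in E12.5 forelimbs and 5.91 to 6.56 in E11.5 forelimbs (-1.07 ± 0.17, adjusted p = 1.55e-05) and missed 2-fold without E11.5 replicate 1 (-0.95) or E12.5 replicate 3. Lin28a, Lin28b and Hmga2, genes of the early embryo that let-7 represses, had changes of -0.35, -0.17 and -0.16 (adjusted p = 0.372 to 0.565), and the growth inhibitor Cdkn1c one of 0.31 (adjusted p = 0.0607). Pmaip1, the pro-apoptotic Noxa, was the largest fall outside the blood genes, with 8.22 to 8.92 in E12.5 forelimbs and 10.05 to 10.69 in E11.5 forelimbs (-1.89 ± 0.29, adjusted p = 5.03e-06).

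Of 22 genes of Schwann cells, neural crest and melanoblasts 2 rose (median 0.37). Mia, also a product of cartilage, rose by 1.63 ± 0.20 and Ednrb, the endothelin receptor of migrating crest cells, by 1.16 ± 0.23. The Ednrb call was lost without any of 4 single arrays (adjusted p of 0.00146 to 0.00268), without the 2 arrays of contradictory labels (0.0019), with a replicate block (0.0035), with the probe set of highest mean (0.00358) and with the other labels (0.0418). The defining factors Sox10 (0.17, adjusted p = 0.53) and Foxd3 (0.36, adjusted p = 0.16) of the crest were not called. Fabp7, a fatty acid binding protein of glia, measured 6.69 to 7.23 in E12.5 forelimbs and 4.79 to 5.61 in E11.5 forelimbs (1.65 ± 0.41, adjusted p = 0.00409). No neuronal (26, median 0.02) and no epidermal gene (38, median 0.03) was called, with the neuronal tubulin Tubb3 at 5.77 to 6.48 in E12.5 forelimbs and 6.46 to 6.70 in E11.5 forelimbs. The neuronal genes Stmn2, Stmn3 and Ina had changes of -0.63, -0.04 and 0.01 (adjusted p = 0.0469, 0.935 and 0.985), and the keratins Krt5 and Krt8 had 0.36 and -0.53 (adjusted p = 0.0497 and 0.0293).

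Markers of tissues foreign to the limb were mostly at low levels. Of 15 liver genes 1 was called, Ttr, the thyroxine carrier transthyretin, at 4.70, 6.06, 5.99, 6.69 and 5.54 in E12.5 forelimbs and 4.21, 4.34, 4.38 and 4.73 in E11.5 forelimbs (1.38 ± 0.25, adjusted p = 0.00013). Its stages overlapped and its 4 probe sets gave 0.50 to 1.90, and the Ttr call was lost without E11.5 replicate 1 (adjusted p = 0.00113) or E12.5 replicate 4 (0.00123). Apoa1, an apolipoprotein, had a change of -0.01 (adjusted p = 0.987). Alb, serum albumin, measured 3.58 to 4.39 in E12.5 forelimbs and 3.74 to 4.21 in E11.5 forelimbs (0.00), and Afp 6.22 in E12.5 replicate 4 and 3.45 to 4.11 in the other E12.5 arrays, against 3.72 to 4.73 in E11.5 forelimbs. Of 12 heart genes Myh7 and Smpx were called, both also of slow skeletal muscle, while the chamber markers Nppa, Nppb, Myl2 and Myl7 had changes of -0.17 to 0.10. No gene of kidney, gut and lung epithelium (10) or of lens and retina (9) was called, with changes of -0.21 to 0.15 for Cdx1, Cdx2, Nkx2-1 and Sftpc and of -0.12 to 0.02 for the crystallins Crygb, Crygd and Cryaa. The arrays with high Xist, expressed in female embryos, numbered 2 of 5 at E12.5 and 1 of 4 at E11.5, and the Y-linked Eif2s3y and Kdm5d had changes of -0.38 and -0.34 (adjusted p = 0.875 and 0.858).

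The hindlimb between the same stages gave 106 genes called higher (0.583%) and 44 lower (0.242%), on arrays that the forelimb comparison does not share. 56 genes were called higher in both limbs, 51.4% of the forelimb list and 52.8% of the hindlimb list, and 28 lower in both, 93.3% and 63.6%. The sign of the hindlimb change was that of the forelimb in 108 of the 109 and in 30 of the 30 genes called in the forelimb, beside 62.5% of all genes, and the limbs of a stage come from 1 litter. Those called higher in the forelimb, which were selected there, had a median of 1.29 in the forelimb and 1.01 in the hindlimb, and those called lower -1.32 and -1.29. Over E10.5, E11.5, E12.5 and E13.5, earliest first, the 109 genes averaged 4.73, 5.91, 7.30 and 8.23 in forelimbs, and 4.73, 5.27, 6.29 and 7.67 in hindlimbs, whereas the 30 lower genes averaged 8.01, 7.71, 6.26 and 5.28 in forelimbs and 7.83, 7.70, 6.32 and 5.27 in hindlimbs.

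**Figure D4:**
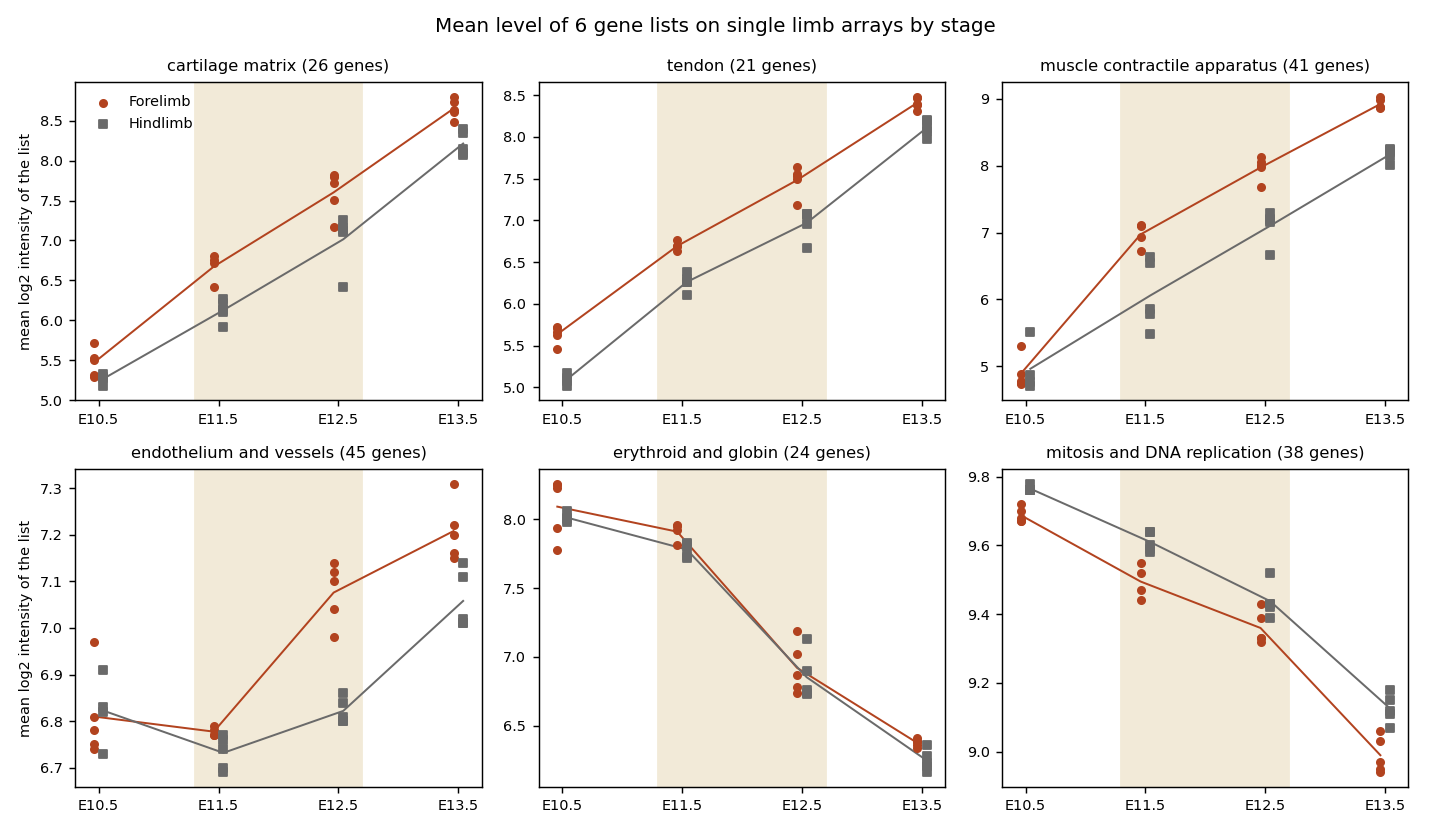
Mean log2 intensity (y axis) of 6 gene lists on every forelimb array (red circles) and hindlimb array (grey squares) against stage (x axis), with lines through the stage means and the step from E11.5 to E12.5 shaded. The cartilage, tendon and muscle lists were higher in E12.5 than in E11.5 forelimbs and lower in hindlimbs than in forelimbs at both stages, and the erythroid list was lower in E12.5 than in E11.5 limbs, at 6.74 to 7.19 in E12.5 forelimbs and 6.73 to 7.13 in E12.5 hindlimbs.

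The difference between the forelimb and the hindlimb step was tested directly. The paper describes hindlimb development as running behind that of the forelimb, so equal stage labels need not be equal developmental stages. Limb type and this delay cannot be told apart in the difference. 4 genes were called with a more positive step in the forelimb than in the hindlimb (0.022%) and none with a more negative one, and at an adjusted p under 0.05 these were 12 (0.066%) and 1 (0.0055%). With no fold minimum, 37 genes had an adjusted p under 0.05, of which 29 had the more positive step in the forelimb and 8 the more negative one. The labels do not say whether fore- and hindlimb arrays of the same number come from 1 embryo, and the fit treats all arrays as independent. High Xist, the RNA of female cells, fell on the same numbers in both limbs at E12.5, and at E11.5 number 4 differed. With limb arrays of 1 number and stage held together as a random block at E12.5 and E13.5, a fit chosen after seeing the data, 6 genes were called with the more positive forelimb step and none with the more negative one, and Sbspon, Hapln1, Serpinb7 and Shh kept their call. Sbspon, a secreted protein with thrombospondin and somatomedin domains, measured 5.03, 6.07, 6.04, 6.52 and 6.08 in E12.5 forelimbs and 3.67, 4.01, 4.16 and 3.78 in E11.5 forelimbs. In hindlimbs it averaged 3.87 ± 0.23 at E12.5 and 3.49 ± 0.14 at E11.5 (SD, n = 5 each), so the steps differed by 1.66 ± 0.22 (SE, adjusted p = 6.6e-05). At E13.5 Sbspon averaged 6.47 in hindlimbs and 7.18 in forelimbs. Sbspon kept its call when any single array was left out.

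Hapln1 averaged 6.66 ± 0.35 in E12.5 and 6.65 ± 0.09 in E11.5 hindlimbs, so that the forelimb rise of 1.51 stood against a hindlimb step of 0.01 (difference 1.50 ± 0.24, adjusted p = 0.000608). From E10.5 to E13.5 Hapln1 averaged 7.64, 6.02, 7.53 and 9.59 in forelimbs and 8.24, 6.65, 6.66 and 8.73 in hindlimbs. Both limbs were thus lower at E11.5 than at E10.5. Serpinb7, a serine protease inhibitor, measured 3.51, 4.82, 4.70, 4.75 and 4.71 in E12.5 forelimbs and 2.87, 3.20, 2.77 and 3.11 in E11.5 forelimbs, near the lowest values of the series (2.29), and its hindlimb step was 0.02 (difference 1.49 ± 0.23, adjusted p = 0.000608). The difference for Shh lay in the hindlimb, where the gene averaged 4.66 ± 0.13 at E12.5 and 6.51 ± 0.31 at E11.5, a step of -1.85, against -0.50 in the forelimb (difference 1.35 ± 0.21, adjusted p = 0.000608). Over the 4 stages, earliest first, Shh averaged 7.37, 5.04, 4.55 and 4.53 in forelimbs and 7.29, 6.51, 4.66 and 4.59 in hindlimbs. Both limbs thus fell from E10.5, and the larger fall came before E11.5 in forelimbs and after it in hindlimbs. Leaving out single arrays left 1 to 5 genes called. Without any of 11 arrays the 1 gene called was Sbspon, so Hapln1, Serpinb7 and Shh each lost their call there. With the probe set of highest mean none of the 4 genes kept its call, at adjusted p of 0.0015 to 0.0041 in limma. The 4 groups fitted alone left none, with an adjusted p of 0.0133 for Sbspon.

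Differences that missed the threshold of 0.001 included Enpep (1.53 ± 0.27, adjusted p = 0.00216) and Myh8 (1.38 ± 0.30, adjusted p = 0.0295), both with the larger rise in the forelimb, and Egfl6, a secreted matrix protein that rose by 1.50 in the forelimb and 2.85 in the hindlimb (difference -1.35 ± 0.31, adjusted p = 0.0436). Grem1, the gremlin antagonist that relays hedgehog to the ridge, had the largest difference, 2.27 ± 0.39 (adjusted p = 0.00216). It measured 7.92, 7.51, 8.58, 8.20 and 7.78 in E12.5 forelimbs, against 8.44, 6.84, 6.04 and 7.75 in E11.5 forelimbs. The E11.5 values spread over more than 2 log2 units, with the lowest in replicate 3, the array low in Tbx5 and with the Actb 3' minus 5' signal of 0.70, whose part in this difference was not tested. The retinoic acid receptor Rarb (1.04 ± 0.21, adjusted p = 0.0176), the growth factor Igf1 (1.14 ± 0.22, adjusted p = 0.0108) and the arterial connexin Gja5 (0.98 ± 0.22, adjusted p = 0.0398) had positive forelimb changes of 0.90, 0.75 and 1.29, beside hindlimb changes of -0.14, -0.39 and 0.31. Shisa2, which retains FGF and WNT receptors in the cell, went the other way, with 0.07 in the forelimb and 1.01 in the hindlimb (difference -0.94 ± 0.16, adjusted p = 0.00132).

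**Figure D5:**
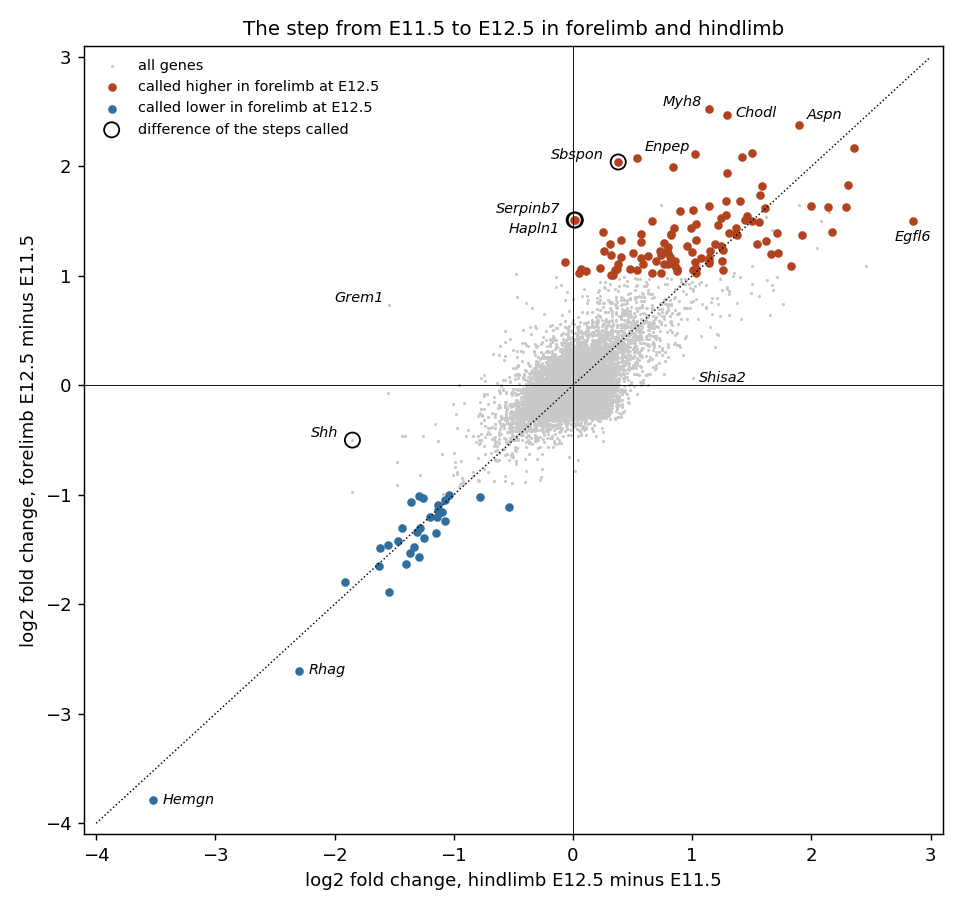
Log2 fold change of every gene between E12.5 and E11.5 in forelimb (y axis) and hindlimb (x axis), with genes called higher in the forelimb in red, called lower in blue, and the 4 genes whose steps were called different circled. The dotted line marks equal steps, along which the lower genes lie, and Sbspon, Serpinb7 and Hapln1 sit above it at hindlimb steps of 0.38, 0.02 and 0.01.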

How the data were processed

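The authors hybridised RNA of single embryos, amplified in a pair of rounds, to Affymetrix mouse arrays and processed all arrays with RMA at default settings, which corrects background, normalizes by quantiles and summarises the probes of a probe set (version not given in the sources used here). The deposited intensities are linear, come without detection calls, and the background level is therefore unknown. Here log2 of the deposited intensity was taken, and the 34958 probe sets of 45101 with exactly 1 gene symbol in the platform annotation were averaged per gene; 932 have several symbols and 9211 none, and these were not used. All 51 arrays in 14 groups entered 1 limma fit (limma version 3.58.1 and statmod version 1.5.0, under R version 4.3.3), with contrasts for each step and for the difference between steps. A gene was called at a fold of at least 2 and a Benjamini-Hochberg adjusted p under 0.001, the thresholds of the study's methods. Array groups were taken from the titles.

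The text names the 15 highest and 15 lowest called genes without overlap, up to 8 called genes and the first 4 genes of each list, and genes whose steps differed; any others were picked for a sentence after their values were seen. The members and lists were chosen with earlier results of these data known. Embryos of different stages are different animals, so the numbers were not taken as pairs between stages. The same-number correlations of deviations between E12.5 and E11.5 forelimbs were 0.22, 0.17, 0.03 and 0.05. For numbers 1, 2 and 4 the E11.5 array of highest correlation carried the same number, and for number 3 it was number 1. On simulated data for the forelimb step over 18194 genes, the fit called 53.0% of 100 genes changed by 1 on the log2 scale, 100% of 100 changed by 2 and none of the unchanged. A change of 1 is the fold minimum itself, so estimates of such a change fall on either side of it. The simulated noise was independent between arrays and held no litter effect, so these shares are not error rates of the real data. The number of arrays limits the precision.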

Additional observations from a re-analysis of the deposited data

Results flagged for a closer look

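In 184 named genes, 27 of 368 stage groups of forelimb arrays held an array far from the others of its stage, where chance flags about 1 in 20 groups. The groups share the same arrays and many genes were named for their values on them, so an excess over that rate was not tested. E12.5 replicate 1 held 12 of the flags. On E12.5 replicate 1, Actn2 (9.01), Itgb1bp2 (6.64), Myl1 (11.71), Mia (8.68), Nog (7.31), Prr32 (6.54), Serpinb7 (3.51) and Sox6 (7.87) were lower than on the other E12.5 arrays, and Krt8 (6.81), Ncf4 (6.17), Sall4 (5.27) and Shox2 (10.504) were higher, all as log2 intensity. On E12.5 replicate 2, Bmp7 (8.41) and Cdx1 (4.25) were high and Cdkn1b (6.21) and Fgf7 (6.62) low. On E12.5 replicate 4, the liver genes Afp (6.22, against 3.45 to 4.11 in the others) and Apoa1 (5.93, against 4.89 to 5.09) and the homeobox gene Hoxa10 (7.86) were high.

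On E11.5 replicate 1, Xist, the long RNA of the inactive X chromosome, was high (10.47) and the Y-linked Eif2s3y low (2.98), and Csf1r (7.27), Krt15 (8.46) and Snorc (4.30) were low. On E11.5 replicate 3, C1qa (7.13) was high, and Hoxa13 (7.99) and Prrx1 (8.86) were low. 

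By the test of the difference between steps at an adjusted p under 0.05 in limma, 8 of the 184 genes that the naming rule picked differed. Each had the more positive change in the forelimb. The rule itself picks genes called in the forelimb step or in this difference, so their direction is not independent of the picking. Over all genes 37 differed, 29 with the more positive forelimb step and 8 with the more negative one. Egfl6 (-1.35) and Shisa2 (-0.94), picked for a sentence outside the rule, had the more negative step in the forelimb. The forelimb minus hindlimb step was 1.66 for Sbspon, 1.53 for Enpep, 1.50 for Hapln1, 1.49 for Serpinb7, 1.38 for Myh8, 1.35 for Shh, 0.98 for Gja5 and 0.65 for Tbx4, the T-box factor of the hindlimb.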

How the results depend on the processing

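The numbers of genes called were 109 higher, 30 lower, 4 with a more positive forelimb step and 0 with a more negative one. With groups from the other labels they were 1, 15, 0 and 0, and without the 2 arrays of contradictory labels 99, 26, 2 and 0. A replicate block gave 71 (64 of them among the 109), 12, 1 and 0, in a fit that takes equal numbers in different litters as pairs, although numbers do not pair embryos across stages. Taking fore- and hindlimb arrays of 1 number as a random block at E12.5 and E13.5, chosen after seeing the data, gave 109, 30, 6 and 0; the deviations of such arrays correlated at 0.07 to 0.35 at E12.5 and -0.11 to 0.13 at E11.5. Leaving out genes of below-median level gave 54, 21, 0 and 0, from fewer genes tested. With no fold minimum they were 476, 138, 4 and 0, and at an adjusted p under 0.05 they were 121, 30, 12 and 1. Fitting only the groups compared gave 88, 24, 0 and 0, the probe set of highest mean 142, 36, 0 and 0, and quantile normalization 93, 27, 3 and 1. Leaving out single arrays gave 93 to 135, 25 to 31, 1 to 5 and 0 to 1. The difference of steps was called for 1 gene without any of 11 arrays, and for 2 without forelimb E11.5 replicate 2 or hindlimb E11.5 replicate 5 or E12.5 replicates 4 or 5. The cause of these shifts was not tested. Of the named genes under all alternatives of the forelimb step none changed sign while called, with 3441 values on the same side of the threshold, 150 no longer past it and 12 newly past it. Hemgn kept its call throughout. The blocked fit moved the counts of cartilage to 5, tendon to 2, fibrous matrix to 1, endothelium to 0, erythroid genes lower to 4, muscle contractile genes to 15 and heart to 3. Without a detection call, signal close to the lowest intensities has no known distance to background.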
